A study of Papio anubis and Macaca mulatta with 6 samples.

Results

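The genes KRT7, KRT8, KRT18, KRT19, VIM and NES, which encode keratin 7, keratin 8, keratin 18, keratin 19, vimentin and nestin, were followed across the cell types of the immature baboon and rhesus macaque testis. They were taken by symbol, 6 of the 34178 genes listed for the baboon and 4 of the 21356 listed for the rhesus monkey, where KRT8 and KRT18 were not analysed. The cells came from 2 baboons and 2 rhesus monkeys, for which no treatment is given. Their testes were obtained at necropsy after euthanasia for another purpose. A short digestion with collagenase and a wash that removed interstitial cells came before the digestion with trypsin, and no cells were selected. Class sizes are thus those of this preparation and of the marker gate used here. Baboon animal 1 gave the libraries 1 and 2 and baboon animal 2 the library 3, while rhesus animal 1 gave the library 1 and rhesus animal 2 the libraries 2 and 3. Baboon library 3 was made with version 3 of the droplet chemistry and the other 5 libraries with version 2, so that in the baboon the chemistry and the animal cannot be told apart. The ages are given as 15 and 20 months for one species and as newborn and 26 months for the other, but the paper and the text deposited with the data name opposite species, and age was not used.

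Intermediate filaments are ropes of protein that give a cell mechanical strength, and their subunits differ by cell type. Simple keratins assemble from a type II partner (KRT7 or KRT8) and a type I partner (KRT18 or KRT19) and are known from single-layered epithelia. Vimentin, of type III, is the filament of mesenchymal cells and endothelium and also of Sertoli cells, and nestin, of type IV, joins vimentin in progenitor cells and in growing vessels. Sertoli cells, the supporting cells of the seminiferous tubule, are known to make keratins 8 and 18 in immature testes and to lose them as they mature, while vimentin stays.

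In the Panubis1.0 baboon assembly of RefSeq, KRT7 (chr9:47011574-47026848), KRT8 (chr9:47645149-47652804) and KRT18 (chr9:47694964-47698920) lie on chromosome 9, and KRT19 (chr17:48707113-48712074), VIM (chr11:108808302-108816837) and NES (chr1:127386424-127395040) lie elsewhere. In the rhesus assembly Mmul_10, NES (chr1:94288417-94297017), VIM (chr9:18373874-18383435) and KRT7 (chr11:51815051-51829792) are on the plus strand. The UMI counts cover whole genes and were not assigned to exons. KRT8 and KRT18 are known for many processed copies elsewhere in primate genomes, and reads that match several genes are not counted, so their levels carry that uncertainty. Reads came from the 3′ ends of transcripts, so levels are compared between cell classes for 1 gene and not between genes.

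The libraries held 16875294 to 49803025 UMIs, and 23050 baboon and 26481 rhesus cells were called. Classes were set by markers that include none of these 6 genes. In the baboon 6916 Sertoli, 5123 stromal, 154 mural (pericytes and contractile cells), 305 endothelial and 212 germ cells were gated, and in the rhesus monkey 4533, 14706, 379, 635 and 353. The markers named next were part of the gate, so their high shares follow from it and do not test the classes. SOX9 was found in 83.8% of the baboon and 72.4% of the rhesus Sertoli cells, DCN in 97.1% and 97% of the stromal cells, RGS5 in 76.6% and 73.1% of the mural cells and EGFL7 in 93.1% and 91.3% of the endothelial cells. UTF1 was found in 85.8% of the baboon germ cells and TKTL1 in 79.9% of those of the rhesus monkey. Other markers of a class were rarer. Besides SOX9, the Sertoli markers were found in 0.029% (PRND) to 68.7% (INHBB) of the baboon Sertoli cells, with DHH in 34.7% and CST9L in 18.5%. The Sertoli marker PRND was thus at or near 0 in baboon Sertoli cells, and the germ cell marker MAGEA4 was at 0 in rhesus germ cells. In no class, 10229 baboon and 5644 rhesus cells remained. These held 30.2% of the KRT8 UMIs of all baboon cells and 24.9% of the KRT19 UMIs of all rhesus cells. Clusters of cells made without the 6 genes gave larger classes, with 16693 baboon and 7825 rhesus cells in clusters named Sertoli and 691 rhesus cells in the germ cluster. Libraries of the version 2 chemistry shared 51 to 145 cell barcodes per pair, against 55.4 to 145.1 expected from their sizes. The largest excess was between rhesus libraries 2 and 3, both of animal 2, with 109 against 79.3. Cells marked as doublets, 4.44% to 8.94% of a library, were kept. This share was set in advance from the number of cells in the library and is not a measured rate.

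A level is given in CPM, the UMIs of a gene in a class scaled to a fixed total of UMIs, and classes were compared by sums per animal (n = 2 animals a species) in edgeR's quasi-likelihood test with Benjamini-Hochberg adjustment over all genes, at an adjusted p of 0.05. Beside it stands, where it matters, the level expected from free RNA, which is the gene's level in near-empty droplets scaled by how much of AMH and INHA, transcripts of Sertoli cells, the class carried. KRT7 did not pass the filter on low counts in either species, so 5 baboon and 3 rhesus genes were tested over 10 pairs of classes. In all, 32 of 50 baboon and 16 of 30 rhesus comparisons passed.

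**Figure D1:**
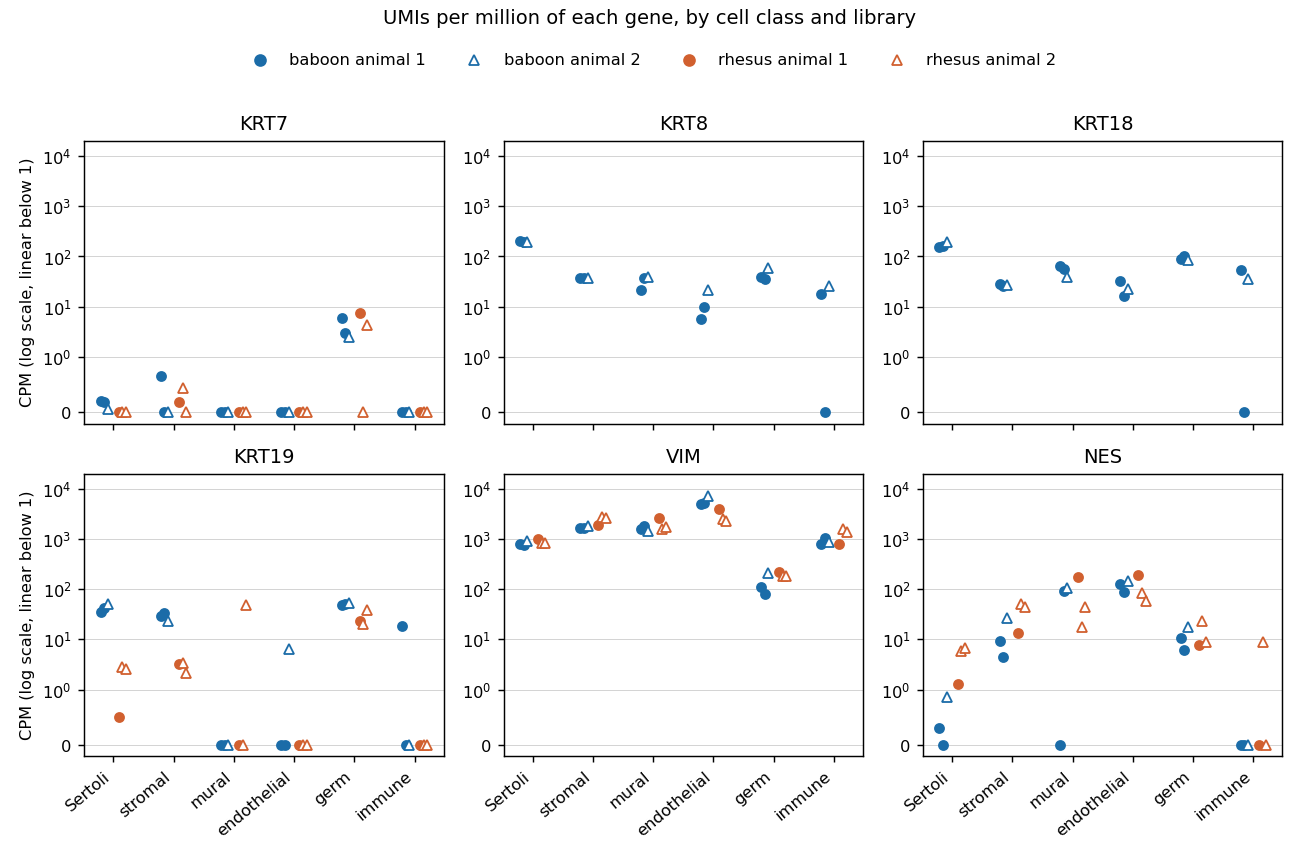
Levels of the 6 genes by cell class, with 1 panel a gene and 1 point a library, colours for the species and filled circles and open triangles for animals 1 and 2, in CPM on an axis that is logarithmic above 1 and linear below. In the baboon, KRT8 and KRT18 were highest in Sertoli cells, and VIM was highest in baboon endothelial cells (5062 to 7213 CPM) and lowest in the germ cells of both species (81.3 to 223 CPM).

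In the baboon, 4 of the 5 tested genes separated Sertoli from stromal cells (22.0% of all 12431 genes tested passed there), 4 separated Sertoli from mural cells (11.7% of all genes), 5 Sertoli from endothelial cells (23.5%) and 4 Sertoli from germ cells (46.2%). Between stromal and mural cells 0 of 5 passed by edgeR (5.50% of all genes), with 3 at an unadjusted p under 0.05 and 1 called by DESeq2. Stromal and endothelial cells differed in 4 (17.3%), stromal and germ cells in 2 (43.2%), mural and endothelial cells in 1 (7.97%), mural and germ cells in 3 (27.9%) and endothelial and germ cells in all 5 (40.4%). The comparisons share the same class sums and are not independent. In the rhesus monkey, where 11030 genes were tested, 2 of the 3 tested members passed between Sertoli and stromal cells (15.5% of all genes), 2 between Sertoli and mural cells (8.73%), 2 between Sertoli and endothelial cells (15.5%) and 2 between Sertoli and germ cells (32.6%). By edgeR 0 of 3 passed between stromal and mural cells (1.68%) and 0 of 3 between stromal and endothelial cells (11.0%), with 1 and 2 at an unadjusted p under 0.05 and 0 called by DESeq2 in either. Stromal and germ cells differed in 2 (34.5%), mural and endothelial cells in 1 (4.15%), mural and germ cells in 2 (22.4%) and endothelial and germ cells in 3 (32.4%).

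KRT8, the type II partner of the commonest keratin pair of simple epithelia, had a level of 201, 192 and 195 CPM in the Sertoli cells of baboon libraries 1, 2 and 3. Stromal cells had 37.6, 36.4 and 36.5 CPM, mural cells 21.6, 37.7 and 38.6 CPM, endothelial cells 5.78, 9.66 and 21.6 CPM, and germ cells 38.8, 36.1 and 59.4 CPM. Every Sertoli value was above every value of the other classes. By animal, Sertoli cells had 196 ± 1.98 CPM (SD, n = 2) and germ cells, the next in order, 48.7 ± 15.2 CPM. The log2 fold change from stromal to Sertoli cells was 2.27 ± 0.33 (SE, adjusted p = 0.00073 by edgeR), and from germ to Sertoli cells 2.08 ± 0.34 (adjusted p = 0.0007). Sertoli cells were higher in 2 of 2 animals in each of the comparisons with another class. Of the other pairs, stromal cells were above endothelial cells (1.32 ± 0.39, adjusted p = 0.043) and germ cells above endothelial cells (1.51 on the log2 scale), and germ, stromal and mural cells, neighbours in the order, did not pass against each other. The call of stromal above endothelial cells was lost without library 1 (adjusted p = 0.087) and without library 2 (adjusted p = 0.059).

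KRT18, its type I partner, followed the same order at the top. Its Sertoli levels were 154, 158 and 190 CPM in libraries 1, 2 and 3. Germ cells came next with 91, 102 and 85.4 CPM. Mural cells had 64.8, 56.5 and 38.6 CPM, from 20 UMIs in all, stromal cells 27.7, 26.2 and 27.4 CPM, and endothelial cells 31.8, 16.1 and 22.8 CPM. Sertoli and germ cells did not overlap, and neither overlapped with stromal or endothelial cells. Sertoli cells were higher than stromal cells by 2.52 ± 0.27 (log2, adjusted p = 0.00013) and than germ cells by 1.00 ± 0.26 (adjusted p = 0.011). Germ cells were higher than stromal cells by 1.52 (adjusted p = 0.0016) and than endothelial cells by 1.72 on the log2 scale (adjusted p = 0.0019).

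Outside Sertoli cells part of the keratin UMIs can be free RNA. In stromal cells 37.6, 36.4 and 36.5 CPM of KRT8 stood beside expected levels of 43.5, 30.8 and 17.6 CPM, and in endothelial cells 5.78, 9.66 and 21.6 CPM beside 11.1, 8.74 and 11.2 CPM. KRT18 in mural cells, at 64.8, 56.5 and 38.6 CPM, stood beside 31.1, 19.1 and 24.6 CPM. Stromal KRT8 was thus below its expected level in library 1 and above it in libraries 2 and 3, and mural KRT18 was above it in all 3. Immune cells, a class that should lack keratins, had 18.6 ± 9.74 CPM of KRT8 and 35.5 ± 0.38 CPM of KRT18 (SD, n = 2), against 27.2 ± 0.21 CPM of KRT18 in stromal cells. In germ cells KRT18 exceeded the expected level of 8.48, 14.5 and 12.6 CPM in each library. For KRT8 the germ cell levels of 38.8, 36.1 and 59.4 CPM stood beside 12.7, 12 and 11.1 CPM.

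**Figure D2:**
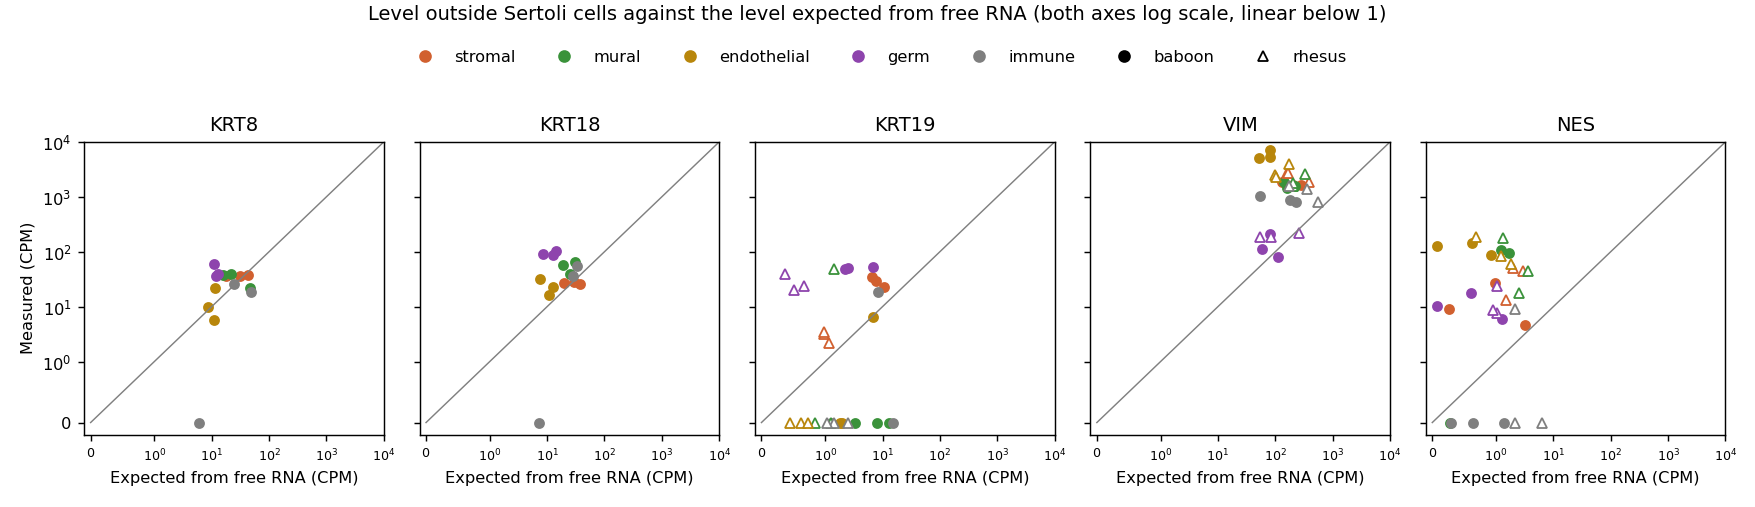
Measured level of 5 of the genes in each library and class outside Sertoli cells (vertical axis) against the level expected from free RNA (horizontal axis), both in CPM on axes that are logarithmic above 1 and linear below, with the line of equality. Colours are classes, filled circles baboon and open triangles rhesus libraries. Germ cells lie above the line in KRT18 and KRT19, and baboon stromal KRT8 lies on either side of it.

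Part of the stromal keratin level came from 81 gated cells of animal 1 and 197 of animal 2. Of the clusters made without the 6 genes, the baboon clusters 11 and 16, named stromal, carried 6614 and 5525 CPM of AMH and 179 and 145 CPM of KRT8, against 552.5 CPM of AMH and 18.0 CPM of KRT8 in the stromal cluster 3. Without their gated cells, the stromal level of KRT8 was 28.2 CPM in animal 1 and 17.7 CPM in animal 2, and that of KRT18 20.7 and 13.6 CPM. The log2 fold change of KRT8 from endothelial to stromal cells was then 0.69 (adjusted p = 0.34). The part of cells caught together in a droplet in this was not tested.

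Shares of cells were compared after each cell was thinned to 1000 UMIs, which left 4353 of 4463 and 2436 of 2453 Sertoli cells. KRT8 had a UMI in 17.3% (exact 95% interval 16.1% to 18.4%) and 15.9% (14.5% to 17.4%) of the Sertoli cells of baboon animals 1 and 2, and KRT18 in 13.9% (12.8% to 14.9%) and 16.3% (14.9% to 17.9%). Without thinning these shares were 42.7% and 71.2% for KRT8, at median depths of 2819 and 8112 UMIs a cell. At 1 depth the intervals of the animals overlapped for KRT8, and those for KRT18 met only at their ends. The animals were not tested against each other. In stromal cells the thinned shares of KRT8 were 2.32% and 2.34%, and in immune cells 0 of 34 (an interval of up to 10.3%) and 3.57% (0.436% to 12.3%). All intervals cover counting error only. With the depth as it was, 1085 of 6916 baboon Sertoli cells held 3 or more UMIs of KRT8, and the highest count was 22, against 22 of 5123 stromal cells and a highest count of 7.

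Keratins 8 and 18 are built into the same filament, and their UMIs were counted within single Sertoli cells. At 1000 UMIs, 133 cells of animal 1 held both against 104 that the product of their shares gives, and 76 cells of animal 2 against 63.2. KRT8 with VIM stood at 402 against 386 and 228 against 226 cells. KRT8 with KRT19 stood at 40 against 26.4 and 19 against 19.7 cells, so that the animals went in different directions. These counts are a description, and cells of an animal are not replicates.

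KRT7, the other type II keratin, was close to absent. It had 18 UMIs in all baboon cells and 19 in all rhesus cells. Germ cells held 8 of the 18, in 7 of 212 cells, and 10 of the 19, in 10 of 353 cells. Sertoli cells held 5 UMIs among 6916 baboon cells and 0 among 4533 rhesus cells. Pooled over the rhesus class, germ cells had 5.84 CPM, at least 21.4-fold higher than the 3 UMIs that a count of 0 in Sertoli cells allows. The 2 rhesus animals had 9 and 1 of the germ cell UMIs, so the level is 7.59 CPM in animal 1 and 1.90 CPM in animal 2.

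KRT19, a type I keratin without a tail that is used as a marker of duct epithelia, stood at different levels in the Sertoli cells of the species. Baboon Sertoli cells had 35.1, 41.8 and 51.4 CPM in libraries 1, 2 and 3, and rhesus Sertoli cells 0.515, 2.77 and 2.60 CPM. In rhesus animal 2, 10 of the 19 Sertoli UMIs lay in 11 cells of the cluster without a class name that is described further on, and without them its level was 1.27 CPM in place of 2.68 CPM. The species were counted on different annotations, so this difference was not tested. The ages of the animals differ between the species too, and only the baboon has a library of the version 3 chemistry. Baboon germ cells had 47.7, 51.2 and 52.7 CPM and stromal cells 29.6, 34.1 and 23.1 CPM. In rhesus cells the germ cells had 23.6, 20.2 and 39.4 CPM and the stromal cells 3.16, 3.44 and 2.18 CPM. Germ cells had the highest level of the 5 classes in every library except rhesus library 3, where mural cells had 48.0 CPM.

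In the baboon, Sertoli and germ cells did not pass in KRT19 by edgeR (log2 fold change -0.13 ± 0.45, adjusted p = 0.84). Sertoli and stromal cells did not pass either (0.56 ± 0.44, adjusted p = 0.45), but a block for the animal, since all classes come from the same animals, gave an adjusted p of 0.037. Likewise stromal cells were below germ cells by 0.69 (adjusted p = 0.26), with an adjusted p of 0.024 with that block. Endothelial cells held 5 UMIs and lay below Sertoli cells by 3.57 ± 0.67 (adjusted p = 0.004), below stromal cells by 3.01 ± 0.69 (adjusted p = 0.016) and below germ cells by 3.70 ± 0.69 (adjusted p = 0.0032). Mural cells held 0 UMIs among 154 cells. Against the level that 3 UMIs over the class would give, Sertoli cells were at least 6.21-fold, germ cells at least 6.79-fold and stromal cells at least 3.34-fold higher. The comparisons of mural with Sertoli cells (adjusted p = 0.015) and germ cells (adjusted p = 0.0087) passed, and that with stromal cells missed the threshold (adjusted p = 0.052, 0.0057 with a block for the animal).

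Rhesus germ cells were above Sertoli cells in KRT19 by 3.85 ± 0.88 on the log2 scale (adjusted p = 0.0075) and above stromal cells by 2.69 ± 0.81 (adjusted p = 0.026), from 43 UMIs in the 353 germ cells. Endothelial cells held 0 UMIs among 635 cells, and germ cells were at least 19.3-fold higher than the level of 3 UMIs there (adjusted p = 0.0072). Stromal cells were at least 2.29-fold above that level, with an adjusted p of 0.12, or 0.044 with a block for the animal. The mural cells had 0 UMIs in libraries 1 and 2 and 14 in library 3, in 3 cells. On these 14 UMIs rest the calls of mural above Sertoli cells (adjusted p = 0.049) and above endothelial cells (adjusted p = 0.049). All 3 cells lie in that cluster without a class name, and without it mural cells hold 0 UMIs of KRT19, the comparison with Sertoli cells turns to 4.77 on the log2 scale with Sertoli cells higher (adjusted p = 0.58), and the comparison with endothelial cells has an adjusted p of 1.

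KRT19 in baboon stromal cells lay above the free RNA in all 3 libraries, at 29.6, 34.1 and 23.1 CPM against 7.56, 6.48 and 10.8 CPM. The germ cell levels lay above it by more, at 47.7, 51.2 and 52.7 CPM against 2.21, 2.52 and 6.75 CPM in the baboon and at 23.6, 20.2 and 39.4 CPM against 0.663, 0.513 and 0.377 CPM in the rhesus monkey. Baboon immune cells held 1 UMI of KRT19 and those of the rhesus monkey 0. After thinning to 1000 UMIs, a UMI of KRT19 was found in 3.52% (exact 95% interval 2.99% to 4.11%) and 5.09% (4.25% to 6.04%) of the baboon Sertoli cells, where the unthinned shares were 10.2% and 32.2%.

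VIM, the type III filament, ran the other way. In baboon endothelial cells it had 5062, 5205 and 7213 CPM in libraries 1, 2 and 3. Stromal cells had 1670, 1634 and 1841 CPM, mural cells 1561, 1845 and 1462 CPM and Sertoli cells 799, 761 and 925 CPM. Germ cells had 113, 81.3 and 212 CPM. The classes did not overlap, except stromal with mural cells. Rhesus endothelial cells had 4007, 2522 and 2328 CPM, stromal cells 1883, 2707 and 2698 CPM, mural cells 2588, 1592 and 1758 CPM, Sertoli cells 1004, 846 and 843 CPM and germ cells 223, 181 and 184 CPM. There endothelial, stromal and mural cells overlapped, and Sertoli and germ cells stood apart below them.

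By edgeR, Sertoli cells had less VIM than stromal cells in the baboon (log2 fold change -1.18 ± 0.33, adjusted p = 0.029) and also in rhesus cells (-1.59 ± 0.37, adjusted p = 0.012), and less than endothelial cells (-2.99 ± 0.36, adjusted p = 0.00016, and -1.97 ± 0.37, adjusted p = 0.0036). Against mural cells the difference was -0.91 ± 0.33 (adjusted p = 0.12) and -1.26 ± 0.36 (adjusted p = 0.053), and a block for the animal gave adjusted p of 0.00058 and 0.0052. Sertoli cells had more VIM than germ cells, by 2.52 ± 0.35 (adjusted p = 0.00031) and 2.29 ± 0.38 (adjusted p = 0.0014). In the baboon, endothelial cells were above stromal cells by 1.81 and above mural cells by 2.07 on the log2 scale. The same rhesus differences were 0.38 ± 0.36 and 0.71 ± 0.36 (adjusted p = 0.58 and 0.4), and whether the species differ was not tested. Stromal and mural cells did not pass in either species (0.26 ± 0.33 and 0.33 ± 0.36).

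The low VIM of germ cells was compared with the free RNA. In the baboon, 113, 81.3 and 212 CPM stood beside 59.1, 109 and 81.0 CPM, and in the rhesus monkey 223, 181 and 184 CPM beside 263, 82.7 and 53.6 CPM, so that germ cells lay above the expected level in 2 of 3 libraries of each species and below it in the other. For Sertoli cells no such level was computed, since AMH and INHA are their own transcripts. VIM had a UMI in 51.3% and 58.4% of the baboon and 59.2% and 52.4% of the rhesus Sertoli cells at 1000 UMIs, in 97.1% and 97.8% of the baboon and 95.2% and 86.4% of the rhesus endothelial cells, and in 8.91% and 15.3% of the baboon and 22.0% and 15.4% of the rhesus germ cells. For immune cells, which are known to make vimentin, the rhesus shares were 50.4% and 61.8%.

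NES, a type IV filament known from neural and vascular progenitors, had its highest mean levels over animals in endothelial and mural cells. Means were lower in stromal and germ cells and lowest in Sertoli cells. Baboon endothelial cells had 127, 86.9 and 146 CPM in libraries 1, 2 and 3, mural cells 0, 94.2 and 106 CPM, stromal cells 9.22, 4.55 and 26.5 CPM, germ cells 10.4, 6.02 and 17.6 CPM and Sertoli cells 0.303, 0 and 0.857 CPM. Rhesus endothelial cells had 189, 84.3 and 59.1 CPM, mural cells 175, 17.6 and 44.6 CPM, stromal cells 13.4, 50.5 and 43.9 CPM, germ cells 7.59, 23.5 and 8.77 CPM and Sertoli cells 1.29, 5.81 and 6.64 CPM. Sertoli cells were the lowest of the 5 classes in every rhesus library and in baboon libraries 2 and 3, while in baboon library 1 mural cells had no UMI.

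NES in Sertoli cells was below stromal cells by 5.03 ± 0.74 (adjusted p = 0.00078) in the baboon and by 3.23 ± 0.83 (adjusted p = 0.02) in rhesus cells on the log2 scale, below mural cells by 6.86 ± 0.86 and 4.51 ± 0.96, and below endothelial cells (-7.89 ± 0.81 and -5.14 ± 0.91), in 2 of 2 animals each. Baboon Sertoli cells were also below germ cells (4.44 ± 0.81, adjusted p = 0.0014), and in the rhesus monkey germ cells minus Sertoli cells gave 1.45 ± 0.99 (adjusted p = 0.28). Endothelial cells were above germ cells in both species (3.45 ± 0.71, adjusted p = 0.004, and 3.70 ± 0.94, adjusted p = 0.012), and mural cells were too (2.41 ± 0.79, adjusted p = 0.046, and 3.06 ± 1.01, adjusted p = 0.047). In the baboon endothelial cells were above stromal cells by 2.86 ± 0.64 (adjusted p = 0.011). The rhesus difference was 1.91 ± 0.78 with endothelial cells higher (adjusted p = 0.16, or 0.028 with a block for the animal). Endothelial and mural cells did not pass in either species (adjusted p = 0.49 and 0.85), although the baboon adjusted p was 0.047 with that block. The calls of mural above germ cells were lost in the baboon without library 2 (adjusted p = 0.078) and in the rhesus monkey without library 3 (adjusted p = 0.11). Baboon stromal cells were below mural cells by 1.82 ± 0.72 (adjusted p = 0.23, or 0.0036 with that block).

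Counts of NES were small and uneven between cells. In the 48 mural cells of rhesus animal 1 the 21 UMIs came from 5 cells, 1 of which held 10. Gated mural cells of both rhesus animals held 39 UMIs, but the rhesus clusters 12 and 16, named mural, held only 14 and 9. Part of the UMIs behind the rhesus mural levels and calls thus lay in gated cells that the clusters did not name mural. Endothelial cells of rhesus animal 1 held 37 UMIs in 15 of 50 cells, with up to 13 in a cell. In the baboon stroma, animal 2 had 26.5 CPM and animal 1 7.51 CPM, and in the rhesus stroma animal 2 had 47.3 CPM and animal 1 13.4 CPM. At 1000 UMIs a cell, NES was found in 5.15% and 14.2% of the baboon and 16.7% and 6.02% of the rhesus endothelial cells, and in 0 of 34 and 0 of 56 baboon immune cells (intervals of up to 10.3% and 6.38%).

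Levels also varied within a class. In the rhesus monkey the clusters 11 and 15, led by INSL3, the peptide hormone of Leydig cells, at 40380 and 29690 CPM, had 352 and 569 CPM of VIM and 3.17 and 4.12 CPM of NES. The other 6 rhesus clusters named stromal had 1087 to 4000 CPM of VIM and 7.81 to 66.2 CPM of NES. In the baboon, the cluster 9, with 590 CPM of INSL3, had 1001 CPM of VIM, against 2467 and 1703 CPM in the stromal clusters 3 and 6. The stromal clusters 11 and 16, which were rich in AMH, had 1178 and 1055 CPM. In NES the cluster 9, at 17.0 CPM, was below cluster 3 (35.2 CPM). It was above the clusters 6, 11 and 16 (8.23, 8.04 and 2.10 CPM). Thus the clusters with most INSL3 were lowest in VIM among the stromal clusters of each species, though in the baboon by a small margin. In NES this held for the rhesus monkey only. These clusters came mostly from 1 animal each, so the animal and the cluster cannot be told apart in part of this comparison, and no test was made.

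The rhesus mural cells formed 2 clusters. The one led by COX4I2 and RGS5, markers of pericytes, had 1106 CPM of VIM and 31.0 CPM of NES, and the one led by ACTA2 and with 2762 CPM of MYH11, genes of the contractile apparatus, had 3244 CPM of VIM and 46.6 CPM of NES. In the baboon Sertoli clusters KRT8 ranged from 148 to 229 CPM and KRT18 from 135 to 192 CPM. KRT19 ranged from 15.7 CPM in cluster 0 to 57.5 CPM in cluster 10, in which 58.5% of the gated cells were Sertoli cells. Each of these Sertoli clusters came mostly from 1 animal. Cluster 0 held 3188 cells of animal 1 and 12 of animal 2, and cluster 10 held 5 and 554. The cluster thus cannot be told apart from the animal and its chemistry in these ranges.

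**Figure D3:**
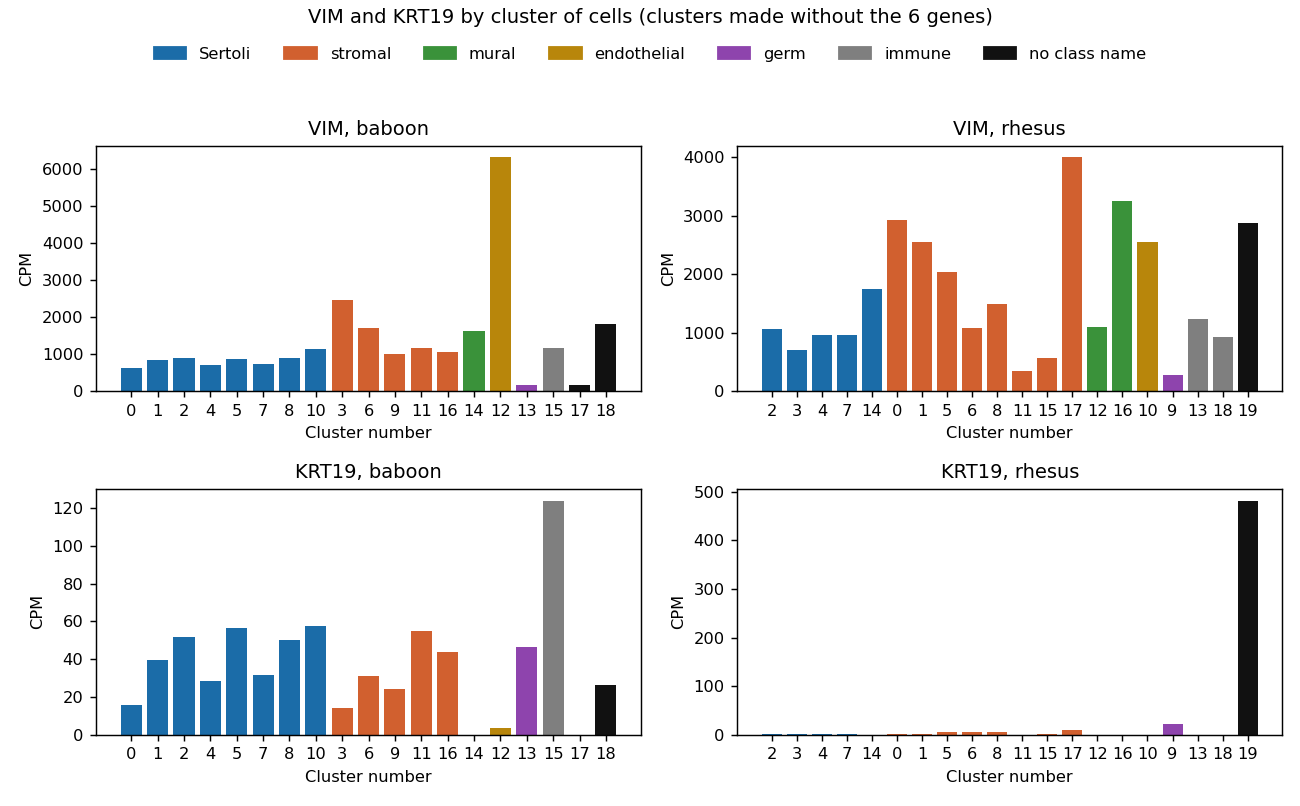
Levels of VIM (upper panels) and KRT19 (lower panels) in CPM, on linear axes that start at 0, with 1 bar for each cluster of cells and colours for the class of the cluster, for the baboon (left) and the rhesus monkey (right). The rhesus stromal clusters with 40380 and 29690 CPM of INSL3 have the lowest VIM of their class, at 352 and 569 CPM, and the rhesus cluster 19 has 481 CPM of KRT19.

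A small set of cells in each species, most or all of them in no class, had more KRT19 than any of the classes. In the rhesus monkey they were in cluster 19, 63 cells with a median of 1650 UMIs, of which 47 were in no class, 11 were gated as Sertoli, 3 as mural cells, 1 as a stromal and 1 as an endothelial cell. These cells had 481 CPM of KRT19, against 2.89 CPM in all other rhesus cells, and held 60 of the 201 KRT19 UMIs of the species. A UMI of KRT19 was found in 29 of the 63 (46.0%, exact 95% interval 33.4% to 59.1%). They had 2880 CPM of VIM, 1 UMI of KRT7 and none of NES. The libraries 1, 2 and 3 gave 2, 25 and 36 of them, and none was marked as a doublet.

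In the baboon 29 cells in no class, which lay within cluster 15, the immune cluster, had 487 CPM of KRT19 against 40.7 CPM in all other cells. Their KRT8 was 300 CPM, their KRT18 362 CPM and their KRT7 49.97 CPM, the last from 4 of the 18 UMIs of KRT7 in the species. VIM was 2036 CPM and NES 0. They came as 5, 8 and 16 cells from libraries 1, 2 and 3, and 3 of them were marked as doublets. The sets were picked after their values were seen, so they carry no test.

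Both sets were led by LCN2 and PTGDS, which encode secreted lipocalins. The genes that came next differed, with CPA3 and CNMD in the baboon set and ITLN1 and ENPP5 in that of the rhesus monkey. WFDC2, a secreted protein of ducts of the male tract, had 465 CPM in the rhesus and 750 CPM in the baboon set (114 and 63.6 CPM in other cells), and CLDN4, a tight junction gene, 120 and 137 CPM (2.11 and 1.92 CPM in other cells). PAX8, a transcription factor of several epithelia, had 187 CPM in the baboon set and 8.02 CPM, or 1 UMI, in that of the rhesus monkey. CDH1, the epithelial cadherin, had 4 UMIs in the baboon set and 0 in that of the rhesus monkey. Of the other genes of the epithelial list, CLDN7 had 49.97 CPM in the baboon set, from 4 UMIs, against 0.277 CPM in other baboon cells. CLDN3 had 212 CPM there against 97.1 CPM. Several others did not stand out in the baboon set. SPINT2 had 612 CPM against 589 CPM in other cells, EPCAM 37.5 against 26.6 CPM, and SPINT1, ELF3 and ESRP1 had 0 UMIs. No cell type name was given to these cells, and whether each set is of a single cell type was not tested.

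**Figure D4:**
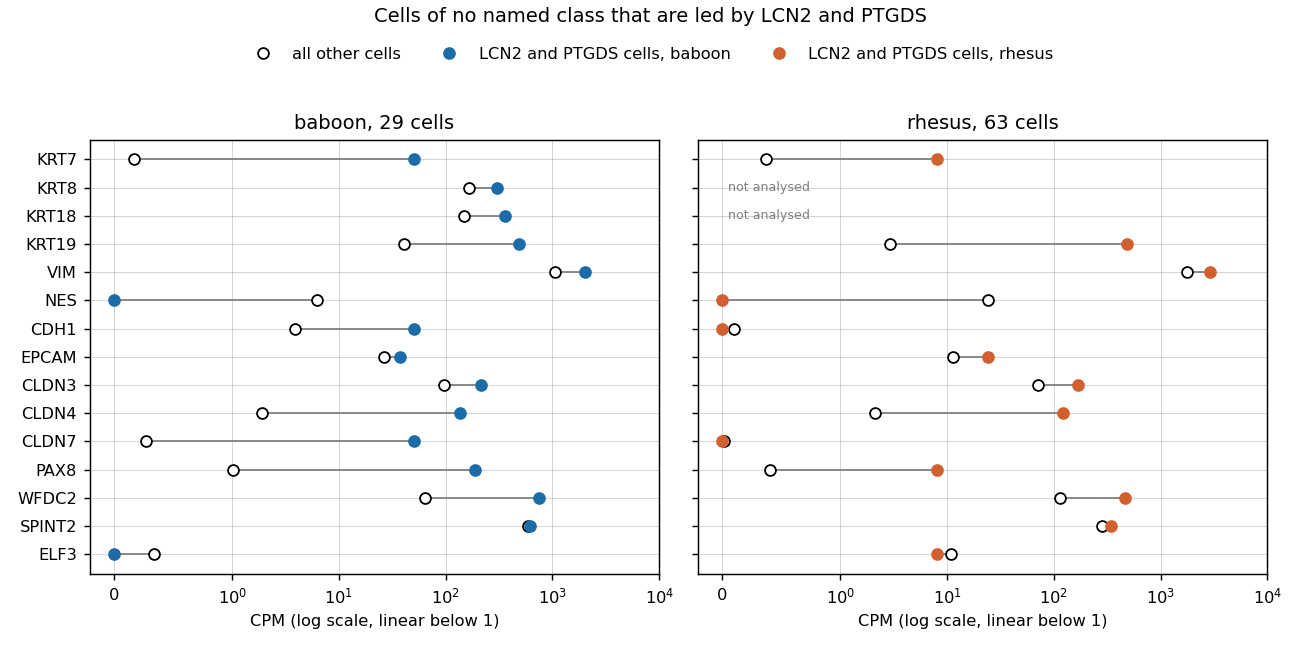
Levels in CPM (axis logarithmic above 1 and linear below) of the 6 genes and of 9 epithelial genes listed for both species. Filled points are the 63 rhesus and 29 baboon cells given no cell type name, and open points all other cells of the species. KRT19 stands at 481 and 487 CPM in these cells against 2.89 and 40.7 CPM in the others, and KRT8 and KRT18 were not analysed in the rhesus monkey.

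Baboon Sertoli cells were also divided by whether they held a UMI of KRT19. Cells with it were 455 of 4463 in animal 1 and 790 of 2453 in animal 2, and they were deeper, with median depths of 3959 against 2725 and 15136.5 against 6040 UMIs. By edgeR without a block, 0 of 14278 genes tested passed (0% of all genes), 8 had an unadjusted p under 0.05, and DESeq2 also called 0, with 5 at an unadjusted p under 0.05. Both groups of cells come from the same animals, so a fit without a block counts the difference between the animals as spread. By edgeR it put fewer genes under an unadjusted p of 0.05 than such a threshold gives when no gene differs. Its 0 calls therefore do not show that the groups are alike. With a block for the animal 42 genes passed, 31 higher and 11 lower in cells with KRT19. That fit leaves 1 residual degree of freedom. When cells were divided and summed at 1000 UMIs, to set depth aside, 0 of 9151 passed without and 7 with the block, and 4 genes passed both with all UMIs and at 1000 UMIs in the fits with the block, namely LOC116268546, MATN2, S100A10 and TIMP1.

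The genes named here were taken from the fits with the block, since 0 passed without it. TIMP1, an inhibitor of matrix proteases, had 451 and 641 CPM in the cells with KRT19 of animals 1 and 2 and 280 and 475 CPM in those without (log2 fold change 0.53 ± 0.06 with the block, adjusted p = 1.7e-13). MATN2, a matrix adaptor protein, had 115 and 31.7 CPM against 60.6 and 22.1 CPM, TNFRSF12A, the TWEAK receptor, 69.6 and 27.9 against 33.4 and 15.4 CPM, and CD9, a tetraspanin, 96.9 and 98.99 against 61.8 and 71.7 CPM. Without the block the adjusted p of each was 1. The other members did not pass with all UMIs. With the block the log2 fold change was 0.21 ± 0.06 for KRT8 (adjusted p = 0.15), 0.16 ± 0.06 for KRT18 (adjusted p = 0.47) and 0.2 ± 0.07 for VIM (adjusted p = 0.24). At 1000 UMIs with the block VIM was higher by 0.45 ± 0.09 (adjusted p = 0.0014) and AMH, the Sertoli hormone, lower (-0.11 ± 0.02, adjusted p = 0.00016). In that fit LOC108581881 also passed, at a log2 fold change of 0.05 ± 0.0006. With 1 residual degree of freedom, the SE and p of the fits with the block say little about the spread between animals. The part of depth in these calls was not tested beyond this thinning. In the rhesus monkey 2 and 10 Sertoli cells held KRT19, too few for this comparison.

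**Figure D5:**
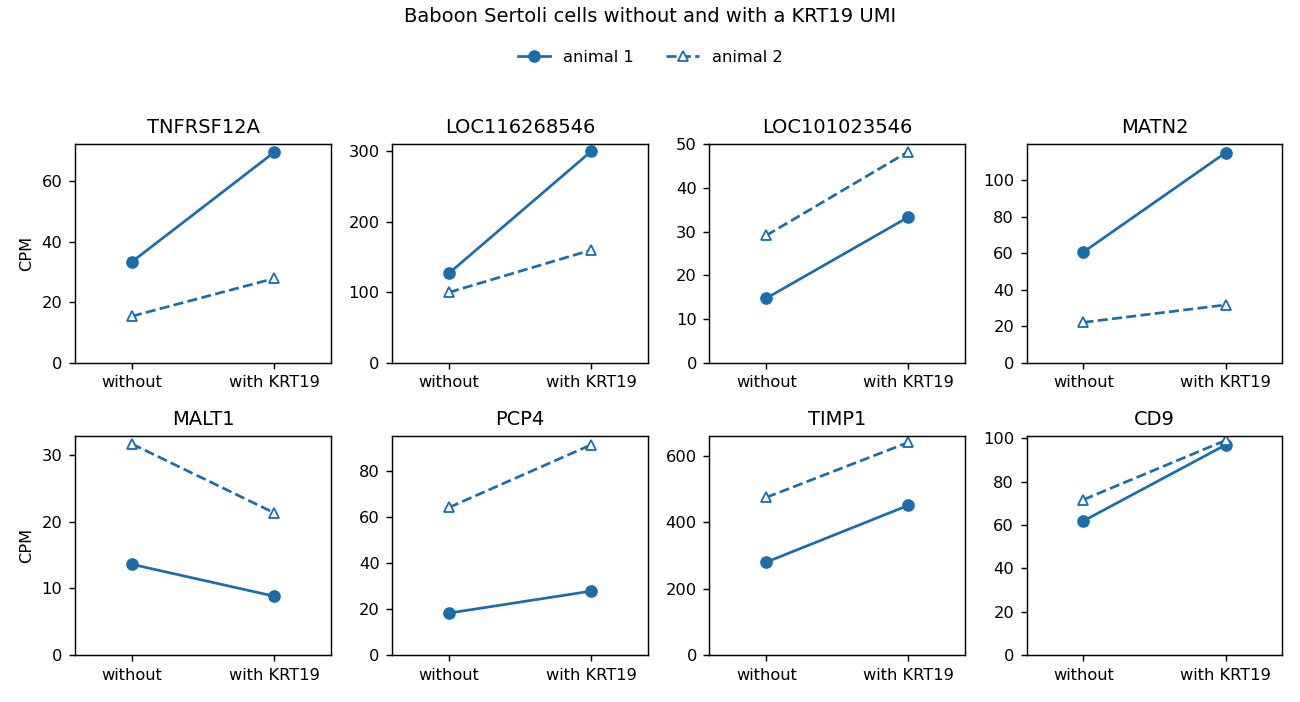
Levels in CPM, on linear axes that start at 0, of 8 genes that passed with the block for the animal in baboon Sertoli cells without and with a UMI of KRT19, with 1 line for each animal. TIMP1, MATN2, TNFRSF12A and CD9 are higher in cells with KRT19 in both animals, and MALT1 is lower in both.

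Other filament genes were followed as a list. Of 8 type III and IV genes, 7 were tested in each species. Between Sertoli and stromal cells 4 of 7 passed, all lower in baboon Sertoli cells, with a median log2 fold change of -2.32 beside -0.0026 over all genes, of which 8.85% were higher and 13.1% lower. The 4 were SYNM (synemin, -2.32), the neurofilaments NEFL (-3.11) and NEFM (-5.52), and DES (desmin, -5.81), of which DES had 27 UMIs in stromal cells of animal 2 and 0 in those of animal 1. In rhesus cells 2 of 7 passed, both lower, NEFL (-3.41) and NEFM (-5.38), at a list median of 1.11 and a median of -0.04 over all genes, of which 6.84% were higher and 8.64% lower. There the median and the called genes differ in sign. SYNM, a partner of desmin and vimentin, was higher in mural than in stromal cells in the baboon (stromal minus mural -4.03 on the log2 scale, adjusted p = 0.00042) and in rhesus cells (-5.51, adjusted p = 0.022).

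Against germ cells 4 of 7 passed, all lower in the Sertoli cells of each species, where 29.3% of all baboon and 17.0% of all rhesus genes were lower. They were SYNM, NEFL, INA and PRPH in both. PRPH, peripherin, had 25.9 and 30.1 CPM in the germ cells of baboon animals 1 and 2 and 0.26 and 0.14 CPM in Sertoli cells, and INA, internexin, 32.9 and 10.9 CPM against 0.71 and 1.06 CPM. Of 14 other keratins, 12 were listed for the baboon and 8 for the rhesus monkey, but 1 (KRT10) and 2 (KRT10, KRT16) passed the filter. KRT10 had 152 and 260 CPM in baboon Sertoli cells and 162 and 235 CPM in stromal cells (log2 fold change -0.1, adjusted p = 0.87). KRT16 was higher in rhesus germ than in Sertoli cells (Sertoli minus germ -4.77 ± 1.10, adjusted p = 0.0079), from 21 UMIs. Lamins are the filaments of the nucleus. Between Sertoli and stromal cells LMNA had a log2 fold change of -0.04 ± 0.34 in the baboon (adjusted p = 0.96) and 0.55 ± 0.35 in the rhesus monkey (adjusted p = 0.35), and LMNB1 0.88 and 0.68 (adjusted p = 0.16 and 0.4). LMNA was higher in Sertoli than in germ cells of both species (2.27, adjusted p = 0.00068, and 2.41, adjusted p = 0.001).

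Of 12 linkers and desmosome genes, which tie filaments to junctions, 7 baboon and 6 rhesus genes were tested. Between Sertoli and stromal cells 3 passed in each species, all higher in Sertoli cells, where 8.85% and 6.84% of all genes were higher. The list medians were 1.04 and 1.76, beside -0.0026 and -0.04 over all genes. DSP, desmoplakin, which binds keratin filaments, was higher by 3.01 ± 0.39 (adjusted p = 0.00036) in the baboon, at 135 and 94.4 CPM against 15.0 and 11.3 CPM, and by 3.99 ± 0.57 (adjusted p = 0.0012) in the rhesus monkey. JUP, plakoglobin, was higher by 2.14 and 3.16. The third gene was EVPL, envoplakin, in the baboon (2.58) and DSC2, a desmosomal cadherin, in the rhesus monkey (3.25).

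The genes whose level ran most like that of each member were ranked by the Pearson correlation over the 10 class sums of a species, among 14995 symbols, on log2(CPM + 10). The sums of an animal share its libraries and the values are descriptions. For VIM these were ZFP36L1 (0.953 over baboon and 0.958 over rhesus sums), CTNNA1 (0.935 and 0.933) and ZFP36 (0.932 and 0.928), for NES PPP1R18 (0.968 and 0.890), ADGRL2 (0.876 and 0.898) and GNG11 (0.895 and 0.871), and for KRT19 C1H1orf35 (0.908 and 0.887), GNMT (0.866 and 0.883) and BCAT1 (0.885 and 0.827). In the baboon alone, KRT8 ran most like ATP1B1 (0.981), GPC1 (0.973) and GATA5 (0.973), and KRT18 like NOP16 (0.972), REST (0.968) and ZFAND6 (0.964). For KRT7, with so few UMIs, the values for NMRK2, TPH2 and RBM47 (0.991 to 0.997) rest on 18 and 19 UMIs of KRT7.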

How the data were processed

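Single-cell RNA libraries (10x Genomics 3′ chemistry) were made from the testes of 2 baboons and 2 rhesus monkeys, 3 libraries a species. The deposited values are raw UMI counts per gene and droplet, which the authors made with Cell Ranger 3.1.0, against Panubis1.0 for the baboon and Mmul_10 for the rhesus monkey. The submitters' notes also name Seurat 3.2.3, and human and mouse builds that were not used here.

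Here, droplets were called cells by a UMI cutoff or by their difference from the free RNA of near-empty droplets, with at least 200 genes. Each cell was put in a class by a Poisson mixture over marker UMIs (10 Sertoli, 10 stromal, 12 mural, 14 endothelial, 17 germ and 22 immune markers, and 3 further lists), with a posterior of at least 0.95 and at least 2 distinct markers. The form of this scoring was chosen after marker counts were seen. The rebuilt classes are not the authors' own. Cells marked as doublets were kept. Alternative classes came from Leiden clusters made without the 6 genes (igraph 0.11.9, leidenalg 0.10.2, scikit-learn 1.9.0).

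UMIs were summed per animal and class, for classes of at least 10 cells, and compared with edgeR 4.0.16 (quasi-likelihood test, TMM, filterByExpr, Benjamini-Hochberg adjustment over all genes tested) in R 4.3.3. DESeq2 1.42.0 was an alternative. With 2 animals, p-values rest on little replication. In simulated data, genes with a log2 fold change of 2 were recovered in 62.0% of cases between baboon Sertoli and stromal cells. The share was 52.5% in the rhesus monkey and 44.0% in the comparison by KRT19. With a log2 fold change of 1 it was 0% in each. Each simulation changed 200 genes, whereas 22.0% of 12431 baboon and 15.5% of 11030 rhesus genes passed between Sertoli and stromal cells. Fewer changed genes make the adjustment stricter, so these shares do not give the recovery in the class comparisons of the data. At 2, there were 10 false calls beside 124 genes recovered in the baboon and 18 beside 105 in the rhesus monkey. The comparison by KRT19 had 19 beside 88. At 1, false calls numbered 0 in the baboon, 5 in the rhesus monkey and 3 in the comparison by KRT19. In each comparison the false share of the calls at 2 was above the adjusted p threshold used.

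The classes of a species come from the same animals. Deviations of classes of an animal correlated at 0.214 to 0.692 in the baboon (median 0.366) and 0.098 to 0.519 in the rhesus monkey (median 0.226), and at 0.790 in the comparison by KRT19. A fit with the animal as a block was therefore run beside the main one.

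The 6 genes, the lists and the tests were chosen with earlier results of these data known. Named genes were the 6 members, the fixed lists, the 3 genes most like each member, and in the comparison by KRT19 up to 8 genes by fold change with a mean of at least 20 CPM. Since that comparison called none without the block, those with the block were named. The sets of cells given no cell type name were described after their values were seen. Of the epithelial list, 1 gene is not reported here, and the baboon count of that list was left out with it.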

Additional observations from a re-analysis of the deposited data

Results flagged for a closer look

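The difference in KRT19 between Sertoli and stromal cells had opposite signs in the species, although neither passed in the main edgeR fit (0.56, adjusted p = 0.45 in the baboon, and -1.16, adjusted p = 0.41 in the rhesus monkey). The baboon difference passed with a block for the animal (0.61, adjusted p = 0.037). That of the rhesus monkey passed by edgeR with at least 3 distinct markers (-3.68, adjusted p = 0.017), where 1 Sertoli cell of each animal held KRT19. On log2(CPM + 1), the difference of Sertoli minus stromal cells was 0.255 and 1.12 in baboon animals 1 and 2, and -1.46 and -0.06 in rhesus animals 1 and 2, so that every animal of a species lay on its own side of 0. The difference of the species' means was 1.45. Without the cells of the unnamed rhesus cluster, which held 10 of the 19 Sertoli UMIs of rhesus animal 2, that animal had -0.75 and the difference was 1.79, and edgeR gave -1.97 (adjusted p = 0.098). The difference between the species was not tested, the libraries were counted on different annotations, and species and annotation cannot be told apart. The ages of the animals also differ between the species, and only the baboon has a library of the version 3 chemistry.

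KRT19 also stood high in the sets of cells that were given no cell type name, at 487.2 CPM in 29 baboon cells and 481.4 CPM in 63 rhesus cells. The comparisons used none of the 29, and of the 63 they used all but the 47 that were gated into no class. The other cells of the species had 40.7 and 2.89 CPM. These cells came from every library, and the sets were picked after their values were seen.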

How the results depend on the processing

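The count of member comparisons that passed was 32 in the baboon and 22 to 38 over the alternatives, and 16 in the rhesus monkey and 13 to 23, and 21 of the 32 and 12 of the 16 passed in every setting. With the animal as a replicate block all of these calls held, and 38 and 19 comparisons passed. The rhesus 23 came from the fit with no filter on low counts, which tested 60 baboon and 40 rhesus comparisons in place of 50 and 30. In it 36 and 23 passed. Cells taken by the UMI cutoff alone lost 10 baboon calls, and left no mural sum of baboon animal 2. The comparison by KRT19 called 0 genes in the main fit, 42 with the animal as a replicate block and 7 at 1000 UMIs with that block. KRT19 between rhesus Sertoli and mural cells, -3.44 in the main fit, turned to 2.86 with at least 3 distinct markers, 4.90 in clusters and 4.77 without the unnamed cluster, and ran from -4.31 to 5.06 when library 2 or 3 was left out. Its 14 mural UMIs lie in 3 cells of library 3. VIM between rhesus Sertoli and stromal cells lost its call in clusters (-1.28, adjusted p = 0.094 by edgeR), as did KRT18 between baboon stromal and germ cells (-0.83, adjusted p = 0.11), and the causes were not tested. NES between rhesus mural and germ cells lost its call in 5 alternatives (adjusted p from 0.057 to 0.18). Without thinning, 26 of 30 baboon and 11 of 20 rhesus shares moved, and at 500 UMIs 16 and 7. Leaving out baboon library 3 or rhesus library 1 leaves 1 animal and gave no test, and the rhesus comparison by KRT19 was not run, with 2 and 10 cells. Exclusion of the unnamed cluster, exclusion of the mixed clusters and the thinned comparison were chosen after seeing the data.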

Other observations

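Genes of epithelia and of the mesenchymal program were followed beside the filaments. Of 7 rhesus epithelial and rete testis genes tested, 2 passed between Sertoli and stromal cells, both higher in Sertoli cells, where 6.84% of all genes were higher, at a median of 2.26 on the log2 scale. CLDN3, a tight junction gene, had 85 and 144 CPM in baboon Sertoli cells of animals 1 and 2 against 14.2 and 25.6 CPM in stromal cells (2.35 ± 0.61, adjusted p = 0.019 by edgeR) and 138 and 253 CPM against 22.0 and 11.2 CPM in the rhesus monkey (3.20 ± 0.52, adjusted p = 0.0019). WFDC2 was higher by 2.25 and 2.92, and EPCAM was higher in the baboon (2.18, adjusted p = 0.016). In the rhesus monkey EPCAM did not pass (2.26, adjusted p = 0.22).

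The factors of the mesenchymal program ran the other way. Of 6 baboon factors 5 passed and of 4 rhesus factors 3 passed, all lower in Sertoli than in stromal cells, where 13.1% and 8.64% of all genes were lower. SNAI2, a repressor of epithelial genes, had 1.16 and 0.82 CPM in baboon Sertoli cells against 167 and 52.6 CPM in stromal cells (-6.95 ± 0.62, adjusted p = 4.8e-05) and 5.14 and 9.04 CPM against 152 and 143 CPM in the rhesus monkey (-4.68 ± 0.43, adjusted p = 0.00013). ZEB1 was lower in both (-3.61 and -3.76), and ZEB2 did not pass (-0.65 ± 0.34 and -0.42 ± 0.40, adjusted p = 0.22 and 0.56).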
